A study of Homo sapiens with 20 samples.

Results

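Dabrafenib, an inhibitor of the BRAF kinase, was present in the medium of 4 of the 10 H3K4me3 libraries of the series, and their peak lists were set against those of the 6 libraries made without it. The 4 exposed libraries were those labelled Colony and Resist, and the 6 unexposed libraries were those labelled parent, GFP and Q61K. The series lists 20 samples, and the other 10 are inputs, which were not analysed here. All cells were WM164, a human melanoma line with a mutant BRAF. Every group thus derives from 1 cell line and its genotype, to which the GFP and Q61K cells add a transgene. Parental cells received DMSO, the solvent of the drug, for 3 days. Colonies had been kept in 50 nM dabrafenib for 45 days, and resistant cells in the same concentration for more than 90 days, with the drug renewed every 3 days. The GFP cells carry a fluorescent protein, and the Q61K cells are named for an activating change in the NRAS protein. Neither the vector and its promoter nor any drug given to these cells is described in the labels, which give their treatment as N/A. Each group had 2 libraries, and the labels name no separate cultures behind them. The p-values below thus rest at least partly on a spread between libraries that may be technical, except where groups are kept whole.

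H3K4me3 is trimethylation of lysine 4 on histone H3. The SET1 and MLL methyltransferase complexes place it and demethylases of the KDM5 family remove it, and it sits at the promoters of active and poised genes, with the widest domains often at genes that define a cell's identity. In melanoma with mutant BRAF, the kinase drives the MEK and ERK cascade without growth factors, and dabrafenib blocks that signal. Melanoma cells that survive such inhibitors for weeks are known to pass through slowly cycling, drug-tolerant states with changed chromatin, and activating NRAS mutations are a known route to resistance. The comparison asks which H3K4me3 regions follow the presence of the drug across both exposure times and across all 3 kinds of unexposed cells.

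Peaks on chromosomes 1 to 22 and X were merged across the 10 lists wherever they overlapped or lay within 1000 bp, which made 31428 regions, at the median 1140 bp long. A region was taken as marked in a library when that library's list held any peak in it. Positions are in GRCh37, counted from 1, and regions are named by their chromosome band. Genes were not placed on this build here, so no region is assigned to a gene, and the melanocyte markers of the line were not examined. Where a band is small, the protein-coding genes that RefSeq lists in the band of the same name in GRCh38 are given as surroundings only.

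Less sequence lay under peaks in the drug-exposed libraries. The colony libraries had 40.2 and 41.4 Mb under peaks and the resistant libraries 35.1 and 34.1 Mb. The unexposed libraries ranged from 40.7 to 48.5 Mb with a median of 46.0 Mb. The 2 sides overlapped, because the second colony library lay above the second parental library, while both resistant libraries lay below every other one. The means were 37.7 ± 3.62 Mb (SD, n = 4) with the drug and 45.4 ± 2.70 Mb (SD, n = 6) without it. The difference of -7.73 Mb had an exact two-sided permutation p of 0.00952 over the 210 ways to label 4 of the 10 libraries as exposed. It was -4.64 Mb without the resistant pair (exact permutation p = 0.0714, smallest possible 0.0357), and -3.03 Mb (exact permutation p = 0.0857) when every list was cut to its 19111 strongest peaks.

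The lists also differed in how the covered sequence was divided into peaks. The exposed libraries had 19111 to 21573 peaks with median lengths of 1472 to 1593 bp, and the unexposed libraries had 29258 to 45376 peaks with median lengths of 366 to 840.5 bp. In both measures the 2 sides did not overlap (exact two-sided permutation p = 0.00952 for the number and 0.00476 for the length, the latter being the smallest that 210 labellings can give). The shortest peak of a list, which is the estimated fragment length under the default settings of MACS2, was 255 to 284 bp with the drug and 142 to 202 bp without it (exact two-sided permutation p = 0.00476). Adjusted over these 4 measures, all p-values were 0.00952. When the 2 libraries of a group were kept together, only 10 labellings exist, and the exact permutation p was 0.1 for covered sequence, median length and shortest peak and 0.2 for the number, against a smallest possible value of 0.1.

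**Figure D1:**
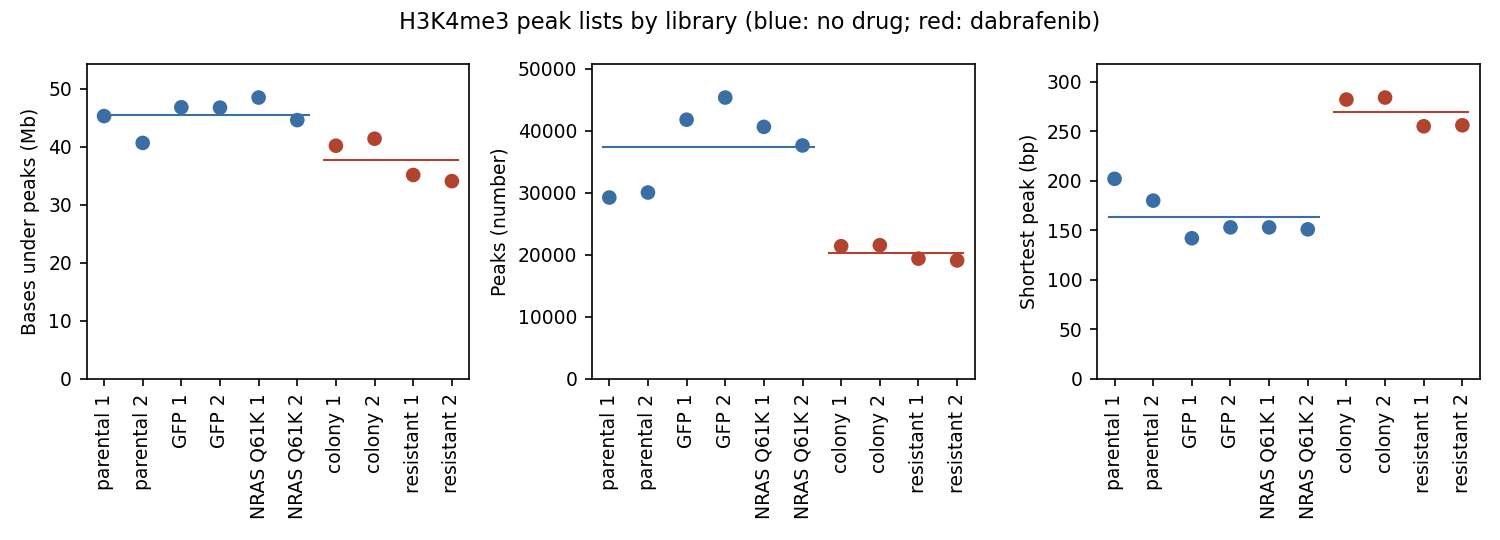
Bases under peaks in Mb, number of peaks and length of the shortest peak in bp, 1 point per library, with a line at the mean of the 6 unexposed (blue) and the 4 exposed (red) libraries. Covered sequence overlaps between the sides, whereas all 4 exposed libraries have at most 21573 peaks and a shortest peak of at least 255 bp.

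Enrichment moved with exposure too, whereas the measures of depth overlapped. The lists hold no read totals, but the fold and p-value of every peak could be solved for a whole number of reads at its summit. The background near the low end of each list was 4.11 to 4.95 reads in the exposed and 2.71 to 5.01 in the unexposed libraries. Scaled by that shortest length, it implied 14.5 to 19.3 and 17.7 to 25.3 reads per kb. The weakest summit that was called held 13 to 15 reads with the drug and 9 to 13 without it. In the 12087 regions marked in all 10 libraries, the median fold of the authors over background was 9.74 to 11.03 with the drug and 12.6 to 16.5 without it. The same regions held 1.43 to 1.55 peaks each with the drug and 1.65 to 2.52 without it. Fixation is described for parental, colony and resistant cells and not for the transgene cells. The part that fragment length, depth and enrichment have in the results below was not tested apart from the filters that are named, and in this design they cannot be told apart from the drug.

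Regions that followed the drug strictly were nearly all losses. Of the 31428 regions, 1474 (4.69%) were marked in all 6 unexposed and in no exposed library, and 16 (0.0509%) were marked in all 4 exposed and in no unexposed library. No other labelling of the libraries gave more than 34 regions of the first kind, so its exact one-sided permutation p was 0.00476, the smallest possible. For the second kind, 15 of the 210 labellings gave at least 16 regions (exact one-sided permutation p = 0.0714), which did not pass a threshold of 0.05. That call turned under 4 other settings: the exact one-sided permutation p was 0.0333 when peaks needed a −log10 q of 10 (20 regions), 0.00476 with lists of equal length (70 regions), 0.0476 with peaks of at least 284 bp (29 regions), and 0.00952 when marked needed a −log10 q of 10 and unmarked meant no peak of any strength (2 regions). Under the remaining settings it was 0.0556 to 0.286. Among the 10 labellings that keep the 2 libraries of a group together, drug-only sets held 0 to 357 regions, 4 of them more than the real one, and the unexposed-only sets of the other 9 held 1 to 17. The 1474 were 9.36% of the 15741 regions marked in all 6 unexposed libraries. The 16 were 1.75% of the 912 regions unmarked in all 6, which enter only because an exposed library has a peak there, so the 2 shares are not comparable rates. A pair of groups that share no drug gave a larger set: 357 regions were marked in all 4 GFP and NRAS Q61K libraries and in none of the others. With lists of equal length the unexposed-only set held 262 regions, and the closing section gives the other settings.

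Between these extremes lay the regions just outside the rule. There were 935 regions marked in 5 unexposed and no exposed library, and 638 marked in all 6 unexposed and 1 exposed library. On the other side, 13 regions were marked in 3 exposed and no unexposed library, and 10 in all 4 exposed and 1 unexposed library. Among regions unmarked in all 6, the 16 had a median −log10 q of 10.1 in the exposed libraries and the 13 just outside had 8.28. Among regions without any exposed peak, the 1474 had a median −log10 q of 8.61 in the unexposed libraries and the 935 had 6.17. The 2 exposed groups shared few of their own gains. Of the 912 regions unmarked in all 6, 338 were marked in both resistant and no colony library. Another 77 were marked in both colony and no resistant library. Losses were shared more often, with 1474 lost in all 4 beside 786 that both colony libraries kept and both resistant libraries lost, and 251 with the reverse pattern. These pair counts are descriptions, since the colony and resistant libraries are set against the same 6.

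**Figure D2:**
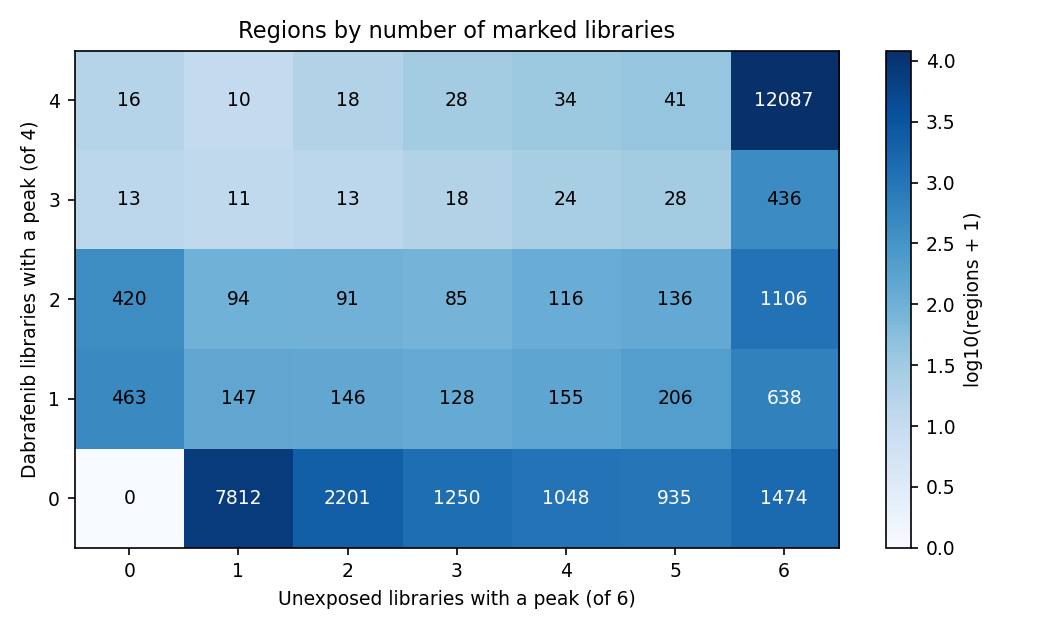
Number of regions by how many of the 6 unexposed (horizontal axis) and how many of the 4 exposed libraries (vertical axis) have a peak, with shading on a log10 scale. The lower right cell holds 1474 regions and the upper left cell 16, while 12087 are marked in all 10 libraries.

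The 16 drug-only regions lay on 11 chromosomes and none lay near a region marked in all 10 libraries. Their lengths ran from 935 to 3184 bp with a median of 1465 bp, beside medians of 1140 bp for all merged regions, 1085 bp for the unexposed-only regions and 4124 bp for regions marked in all 10. Their distance to the nearest region marked in all 10 had a median of 240 kb, with a range from 44.6 kb to 2348 kb. None of the 16 lay within 10 kb of such a region, beside 18.0% of all merged regions and 13.6% of the unexposed-only regions. The regions were modest in strength as well: their mean −log10 q over the exposed libraries ran from 5.26 to 17.4, beside a median of 42.3 in the exposed libraries for regions marked in all 10.

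The strongest of them, at 15q26.1 (chr15:91642875-91644627), had 1057 and 964 bp under peaks in the colony libraries and 1620 and 1701 bp in the resistant libraries. Its summits held 31 and 28 reads in the colony and 42 in each resistant library. The next, at 13q21.31 (chr13:65453113-65455236), had 898 and 720 bp in the colony and 1737 and 1935 bp in the resistant libraries. It stood 2348 kb from the nearest region marked in all 10 libraries, farther than any other of the 16, and RefSeq lists only the loci LOC112267897 and LOC647264 as protein-coding in that band. At 1p13.3 (chr1:110452597-110454448), 1031 and 766 bp were covered in the colony and 1411 and 1662 bp in the resistant libraries. These 3 regions were thus wider in both resistant than in both colony libraries.

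At 2p23.1 the order was the reverse. This region (chr2:31358332-31361515) had 2503 and 2619 bp under peaks in the colony libraries and 1010 and 390 bp in the resistant libraries, with summits of 39 and 41 reads against 22 and 18. It was the longest of the 16. The weakest summits called anywhere in the resistant lists held 14 and 15 reads.

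In the other 4 of the 8 strongest, limma called no difference between the colony and resistant groups (adjusted p from 0.462 to 0.941, on centred values). The region at 8q12.3 (chr8:63997547-63999137) had 1579 and 1577 bp in the colony and 1130 and 1324 bp in the resistant libraries, and it is the member nearest to a region marked in all 10, at 44.6 kb. RefSeq lists 8 protein-coding genes in 8q12.3, namely ASPH, BHLHE22, CYP7B1, GGH, LOC124900252, NKAIN3, TTPA and YTHDF3. At 5q13.3 (chr5:75378542-75379680) the 4 libraries held 848, 971, 978 and 921 bp, the narrowest range among the 8 strongest. At 7p14.1 (chr7:38669925-38671515) they held 1147 and 1372 bp in the colony and 912 and 1243 bp in the resistant libraries. At Xq28 (chrX:151305959-151307357) they held 985 and 1130 bp and then 943 and 753 bp. In covered bases before centring, both colony libraries lay above both resistant libraries at 8q12.3 and Xq28, and the groups overlapped at 5q13.3 and 7p14.1.

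The remaining 8 were weaker, with a mean −log10 q of 5.26 to 9.49. They lay at 1q24.3, 2q35, 7p21.3, 7p14.3, 11p14.3, 13q33.1, 21q22.11 and 22q13.1. The widest of them, at 11p14.3 (chr11:24517800-24519330), had 1126 and 1355 bp in the colony and 1492 and 1201 bp in the resistant libraries, and lay 1666 kb from the nearest region marked in all 10. RefSeq lists ANO5, CCDC179, FANCF, GAS2, LUZP2, SLC17A6 and SVIP in that band. The weakest, at 1q24.3, had 304 and 456 bp in the colony and 669 and 1030 bp in the resistant libraries, with summits of 16 to 25 reads. Over all 16, both resistant libraries had more covered bases than both colony libraries in 7 regions, and fewer in 4. The same counts over all regions are not given here, so this split is a description of the 16 only. In the fit described below, in which 11.1% of all regions were called wider with the drug, all 16 were called; they were chosen on the same peaks, so nothing is read from that count.

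**Figure D3:**
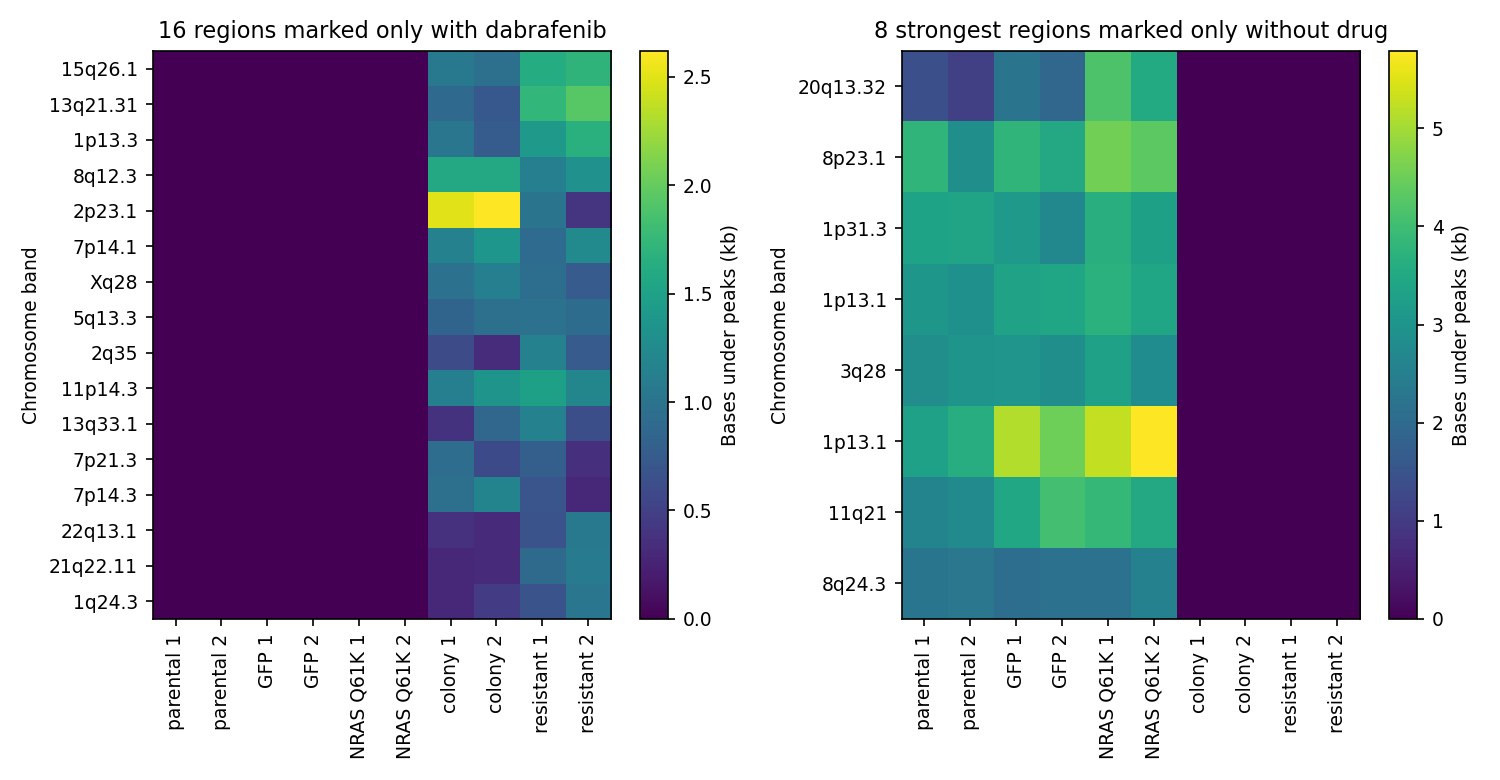
Bases under peaks in kb per library (columns) for the 16 drug-only regions and for the 8 unexposed-only regions of highest mean −log10 q (rows, strongest at the top, named by band), with a separate colour scale for each panel. At 15q26.1, 13q21.31 and 1p13.3 the resistant libraries are the wider ones, at 2p23.1 the colony libraries are, and all 8 regions on the right have at least 1105 bp in each unexposed library.

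The 1474 unexposed-only regions were mostly weak ones. The 15741 regions marked in all 6 unexposed libraries were ranked by their mean −log10 q over those libraries and cut into deciles. In the weakest decile, 53.2% had no peak in any exposed library, followed by 29.99%, 8.45% and 1.33% in the next 3, and by at most 0.318% in each of the other 6. The weakest 3 deciles thus held 1443 of the 1474 regions (97.9%), and 10 regions came from the stronger 6 deciles. In the same order, 5.08%, 19.4%, 58.4% and 91.4% of the weakest 4 deciles were marked in all 4 exposed libraries. At the median, an unexposed-only region had 459 to 653.5 bp and a summit of 21 to 27 reads in an unexposed library, which is above the 13 to 15 reads of the weakest summits called in the exposed lists, though at another background. The regions were shorter than those marked in all 10, with a median of 1085 bp, and 13.6% of them lay within 10 kb of one.

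**Figure D4:**
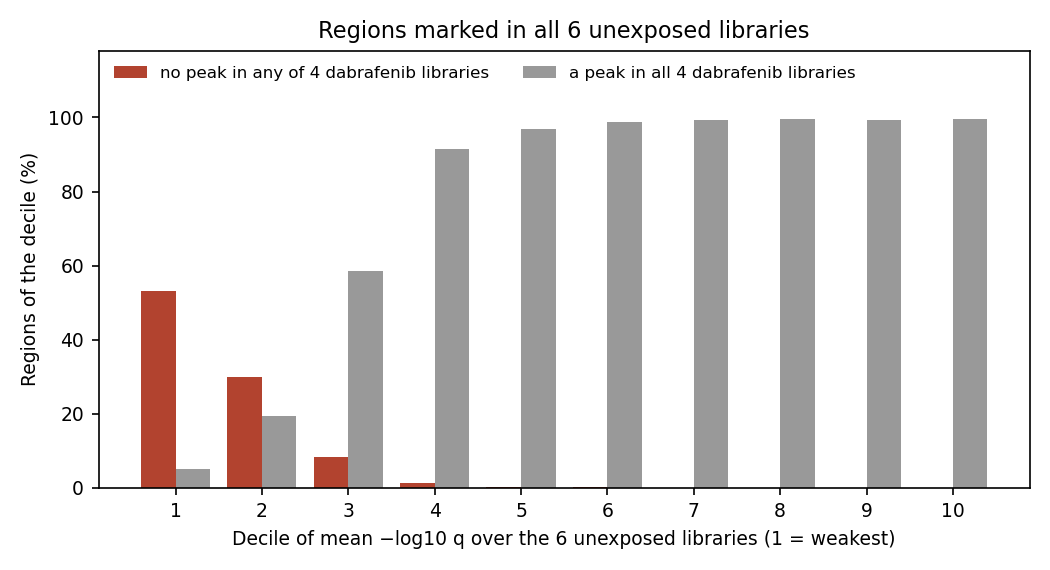
Share of regions marked in all 6 unexposed libraries that have no peak in any exposed library (red) or a peak in all 4 (grey), by decile of mean −log10 q, with 1574 or 1575 regions in each. The red bars fall from 53.2% to at most 0.318% from the fifth decile on.

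A few strong regions went against this pattern, and the 8 of highest mean −log10 q show what was lost there. At 20q13.32 (chr20:57197199-57201991) the parental libraries had 1413 and 1105 bp under peaks, the GFP libraries 2230 and 1907 bp, and the Q61K libraries 4170 and 3531 bp, while none of the 4 exposed libraries had a peak. Its summits held 57 to 136 reads, the highest among the 8. The 3 unexposed groups did not overlap in covered bases at this region, and the NRAS Q61K libraries were the widest.

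Several others were even across the unexposed cells. At 8p23.1 (chr8:9105780-9111297) the 6 libraries had 2890 to 4565 bp with a median of 3788 bp. At 1p31.3 (chr1:67026420-67030411) they had 2710 to 3623 bp with a median of 3328 bp, and at 3q28 (chr3:191142699-191146452) 2819 to 3322 bp with a median of 2936 bp. At 8q24.3 (chr8:143761595-143764239), which lies 5.88 kb from a region marked in all 10 libraries, they had 2084 to 2541 bp with a median of 2210 bp. In each of these regions the 4 exposed libraries were at 0 bp and the unexposed summits held at least 40 reads.

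Band 1p13.1 held 2 of the 8. The first (chr1:117147821-117151535) had 2908 to 3702 bp in the 6 unexposed libraries with a median of 3372 bp. The second (chr1:116210862-116217350) had 3316 and 3609 bp in parental cells, 5126 and 4520 bp with GFP and 5265 and 5789 bp with NRAS Q61K, so that both parental libraries lay below all 4 transgene libraries. The same order held at 11q21 (chr11:94527337-94532321), with 2620 and 2777 bp in the parental and 3440 to 4065 bp in the transgene libraries. Over all 1474 regions, both parental libraries lay below all 4 transgene libraries in 228 and above them in 107. The same counts over all regions marked in the 6 unexposed libraries are not given here, so this order is not shown to be particular to the 1474.

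The share lost differed along the genome. Among regions marked in all 6 unexposed libraries, the lowest shares without an exposed peak were 2.79% on chromosome 22 and 4.32% on X, and the highest were 14.5% on chromosome 4 and 13.4% on chromosome 12. By Giemsa stain of the band, from unstained to darkest, the shares were 8.25% (gneg), 5.89% (gpos25), 9.83% (gpos50), 14.9% (gpos75) and 15.9% (gpos100), so they did not rise at every step. Weak regions are unevenly placed, so the shares were also taken within the weakest 3 deciles alone. There they were 28.8%, 22.7%, 31.2%, 40.1% and 38.4% in the same order of stain, and 44.1% on chromosome 12, 39.7% on chromosome 4, 14.5% on X and 13.3% on chromosome 22. These are descriptions of regions that share libraries, without a test.

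The covered length of each region was then compared. limma was fitted to log2(bases under peaks + 200), centred per library, over the 23153 regions that 2 or more libraries had marked. The contrast set the mean of the colony and resistant groups against the mean of the parental, GFP and NRAS Q61K groups. At an adjusted p of 0.05, 2572 regions (11.1%) were wider with the drug and 6848 (29.6%) were narrower. The median change over all regions tested was -0.16. All 4 exposed libraries lay above all 6 unexposed ones in 771 of the wider regions (3.33% of those tested) and below them in 2859 of the narrower ones (12.3%). All 1474 unexposed-only regions were among the 6848 narrower calls. They were chosen on the same peaks, so they add no separate result. More regions entered the fit through unexposed libraries alone than through exposed libraries alone, so the counts of the 2 directions are not comparable rates. This fit takes its error from the 2 libraries within groups. With the 5 groups as the units, 2 against 3, the calls fell to 50 wider and 771 narrower, and with the libraries as 2 plain groups of 4 and 6 they were 914 and 3984. Without the centring, 1055 regions were wider and 11072 narrower, so the split between directions depends on it.

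**Figure D5:**
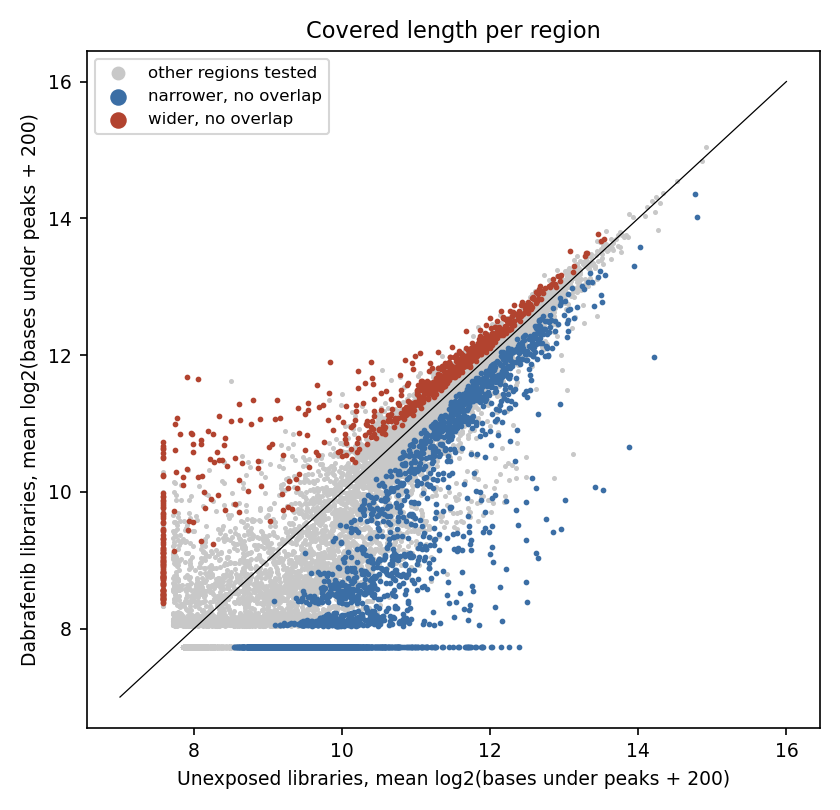
Mean log2(bases under peaks + 200) per region after centring, unexposed libraries on the horizontal and exposed libraries on the vertical axis, for 23153 regions with the line of equality. Regions called at an adjusted p of 0.05 whose 4 exposed and 6 unexposed libraries do not overlap are coloured, 771 wider in red and 2859 narrower in blue, and the band of points at the bottom has no exposed peak.

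The largest rise without overlap was at 1p36.32 (chr1:4035383-4039549). The exposed libraries had 1952 and 2763 bp (colony) and 3629 and 3443 bp (resistant), while the GFP libraries had 218 and 172 bp and the parental and NRAS Q61K libraries none. The rise was 3.77 ± 0.14 (SE) on the log2(bp + 200) scale (limma, adjusted p = 1.06e-06). Pairs of libraries without a peak have no spread there beyond the centring, which makes such an error small. With the groups as units the limma adjusted p was 0.0262. Its summits rose from 12 reads in the GFP libraries to 35 and 40 in the colony and 87 and 98 in the resistant libraries, and its mean −log10 q of 42.6 in the exposed libraries exceeded that of every drug-only region. It missed the strict rule through the 2 short GFP peaks.

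At 7q22.2 (chr7:103968533-103973028) the order of the exposed groups was the other way round. The colony libraries had 3320 and 4092 bp, the resistant libraries 2158 and 2093 bp, the NRAS Q61K libraries 535 and 175 bp, and the other 4 none. The rise was 3.598 ± 0.19 (SE) with a limma adjusted p of 5.78e-06, and of 0.0314 with the groups as units. LHFPL3 is the only protein-coding gene that RefSeq lists in band 7q22.2. At 2q32.1 (chr2:185462386-185464534) the exposed libraries had 1459 to 2058 bp, and among the unexposed ones only the first parental library had a peak, of 247 bp. This region lay 1471 kb from the nearest one marked in all 10 libraries. At 22q13.2 (chr22:41062077-41064638) they had 1123 to 2277 bp, beside 186 bp in the first NRAS Q61K library alone. The fifth of the largest rises was the drug-only region at 8q12.3.

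All 5 of the largest falls without overlap had no exposed peak at all, so they belong to the unexposed-only set and no p-value is given for them. The region at 8q24.21 (chr8:127840458-127847405) had 6775 and 6253 bp in parental cells, 5002 and 4462 bp with GFP and 5025 and 5120 bp with NRAS Q61K. It was widest in the parental cells, with summits of 35 to 60 reads across the 6 libraries. RefSeq lists ASAP1, CYRIB, GSDMC, LRATD2, MYC and POU5F1B as the protein-coding genes of that band. At 11q23.2 (chr11:114165453-114172267) the 6 libraries had 3296 to 6211 bp with a median of 5484 bp, with the GFP libraries lowest.

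The other falls varied more among the unexposed cells. At 12q14.3 (chr12:66029908-66038683) the parental libraries had 2820 and 1584 bp, the GFP libraries 4641 and 4762 bp and the NRAS Q61K libraries 7247 and 6837 bp. At 6q21 (chr6:106964836-106973423) the parental libraries had 1234 and 1461 bp, beside 5982 to 8059 bp in the 4 transgene libraries. In both, the parental cells were the narrowest of the unexposed, so that the difference from the exposed cells is smallest for them. The second region of 1p13.1 was the remaining one of the 5.

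Of the 12087 regions marked in every library, 1831 (15.1%) were wider with the drug and 2046 (16.9%) narrower. Each library is centred on these very regions, which sets the balance of the 2 directions, so it is no result. The middle 80% of the changes lay between -0.31 and 0.22 on the log2(bp + 200) scale. Before centring, the median covered length of these regions was 2918 and 2989 bp in the colony, 2532 and 2474 bp in the resistant and 2772 to 3204 bp in the unexposed libraries.

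The largest rises among them started from short peaks. At 7p11.2 (chr7:57923529-57929892) the colony libraries had 2052 and 2344 bp and the resistant libraries 5105 and 5168 bp, beside 353 to 1635 bp without the drug, a rise of 2.05 ± 0.26 (SE; limma, adjusted p = 4.34e-04). Its resistant summits held 62 and 61 reads, yet the −log10 q was only 17.0 and 16.8. In the same libraries at 6q12, 68 and 63 reads came with 49.5 and 43.7. How well short reads can be placed at 7p11.2 was not tested. At 1q24.1 (chr1:166943139-166946015) all 4 exposed libraries lay between 1750 and 2315 bp and the 6 unexposed ones between 315 and 908 bp, a rise of 1.82 ± 0.11 (SE; limma, adjusted p = 1.07e-05). At 16q12.2 (chr16:55512812-55515646) the exposed libraries had 2283 to 2786 bp and the unexposed ones 400 to 1278 bp. At 6q12 (chr6:69343922-69347147) they had 2251 to 3226 bp against 210 to 1624 bp, with GFP lowest among the groups by its mean and the first parental library at 1218 bp. In all 4 of these regions the exposed and unexposed libraries did not overlap.

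At 16q12.1 (chr16:52577199-52582256) the unexposed cells were split. The GFP libraries had 238 and 153 bp, whereas the parental and NRAS Q61K libraries had 1501 to 2392 bp and the exposed libraries 2507 to 3758 bp. The rise of 1.56 ± 0.11 (SE; limma, adjusted p = 2.01e-05) averages over these unlike groups, and with the groups as units its adjusted p was 0.317. With the groups as units the adjusted p was also above the threshold at 7p11.2 (0.1) and 6q12 (0.125).

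Among the largest falls, 18p11.31 (chr18:3281696-3286477) was graded. The 6 unexposed libraries had 3757 to 4591 bp, the colony libraries 1560 and 1645 bp and the resistant libraries 255 and 256 bp, and the summits held 38 to 56, then 36 and 28, then 18 and 19 reads. The fall was -2.11 ± 0.05 (SE; limma, adjusted p = 1.34e-07; 0.0693 with the groups as units). At 12p13.2 (chr12:12486098-12492392) the exposed libraries had 287 and 1152 bp (colony) and 1007 and 906 bp (resistant), beside 2748 to 4436 bp. At 8q13.3 (chr8:70624640-70628663) the colony libraries were far apart, at 312 and 2037 bp, and the resistant libraries had 759 and 395 bp, all below the unexposed 2324 to 3806 bp. RefSeq lists EYA1, LACTB2, MSC, NCOA2, PRDM14, SLCO5A1, TRAM1 and XKR9 in 8q13.3.

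For the remaining pair of falls the reads at the summit did not follow the covered length. At 2p11.2 (chr2:89865115-89873393) the exposed libraries had 277 to 647 bp and the unexposed ones 3506 to 5009 bp, yet the summits held 148 to 171 and 140 to 175 reads. The −log10 q there was 3.44 to 15.0 and 13.1 to 32.1, low for that many reads, and the placing of reads was not tested. The region at 4p11 (chr4:49118557-49158673) lies in centromeric chromatin by its band stain, where repeats make short reads hard to place. It fell from 15994 to 24140 bp in the unexposed libraries to 9976 and 7925 bp in the colony and 1095 and 1676 bp in the resistant libraries, while its summits held 187 to 218 reads with the drug and 195 to 242 without it. With the groups as units the adjusted p at 4p11 was 0.108.

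The 2 exposed groups were also compared with each other inside the regions called for the drug. The resistant and colony groups differed (limma, adjusted p under the same threshold) in 1175 of the 2572 wider regions, with the resistant group higher in 828, and in 1950 of the 6848 narrower regions, with the resistant group lower in 1318. The share that differs over all regions tested is not given here, so these counts do not show whether called regions differ more often. Because the wider and narrower regions were chosen with the same colony and resistant libraries, the direction of these counts is a description. It also depends on the centring. The value subtracted was -0.187 and -0.218 for the resistant and 0.004 and 0.036 for the colony libraries. This adds 0.22 to every resistant minus colony difference, also where no exposed library has a peak.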

How the data were processed

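H3K4me3 chromatin immunoprecipitation was sequenced as single reads of 50 bp, per the labels' protocols. The authors deposited a narrowPeak list for each of the 10 libraries. Per the submitters' processing notes, the tools were BWA, SAMtools, deepTools 2.5.4 and MACS2 2.1.2, with hg19 and GRCh37 as builds; no roles are given there, nor the treatment of inputs and duplicates. The deposited score, the authors' fold over background (a ratio), the deposited −log10 p-value and the deposited −log10 q-value are per peak, and were used only to rank, filter or describe.

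Of 306884 peaks, 589 lay outside chromosomes 1 to 22 and X and were dropped. A region's −log10 q in a library is that of its strongest peak there. Bands came from circlize 0.4.16. Summit reads were solved from fold and p-value and were whole within 0.0005 in 100% of peaks. Implied reads per kb divide the 1st percentile of solved backgrounds by the shortest peak's length; depth is otherwise unknown.

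Region counts and library totals were tested by exact permutation over 210 labellings, which treats libraries as exchangeable although pairs share a group. Covered length was modelled as log2(bp + 200) in limma 3.58.1 (R 4.3.3), centred on regions marked in all 10 libraries, with 5 group means, a trended eBayes and Benjamini-Hochberg adjusted p-values. Python 3.11.15, numpy 2.4.6, pandas 2.3.3, scipy 1.17.1 and matplotlib 3.10.9 did the rest, and the scripts were tested on simulated data.

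Regions were named by rule: the 8 strongest drug-only and 8 strongest unexposed-only regions, the 5 largest rises and 5 largest falls without overlap of libraries, and the same among regions marked in all 10, in all 34 distinct regions. The other 8 drug-only regions are added for completeness. The comparison, rules and alternatives were chosen with earlier results of these data known. Gene lists and cell type markers, which need an annotation of GRCh37, were not analysed here.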

Additional observations from a re-analysis of the deposited data

Results flagged for a closer look

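Among 56 sets of 4 or 6 libraries examined at the 34 named regions, 4 held a library far from the others by Dixon's criterion. Its nominal rate of about 1 in 20 does not apply to sets with many values of 0 or with unlike groups. At 7q22.2 the first NRAS Q61K library had 535 bp under peaks, beside 175 bp in the second and 0 in the other 4 unexposed libraries. Both libraries with a peak there are thus of 1 group. At 2q32.1 the first parental library had 247 bp and at 22q13.2 the first NRAS Q61K library had 186 bp, with the other 5 unexposed libraries at 0 in each. With 5 values of 0, a peak of any length meets the criterion. At 16q12.2 the second colony library had 2786 bp, beside 2342 bp in the next and 2283 bp in the lowest.

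The 2 exposed groups differed from each other in 10 of the 34 named regions, by the same limma fit, as resistant minus colony in log2(bp + 200). The resistant cells were wider at 15q26.1 by 0.84 (adjusted p = 0.0195), at 13q21.31 by 1.24 (adjusted p = 0.00422), at 1p13.3 by 0.89 (adjusted p = 0.0256) and at 1p36.32 by 0.79 (adjusted p = 0.0308). They were also wider at 7p11.2 by 1.38 (adjusted p = 0.0398) and at 16q12.1 by 0.65 (adjusted p = 0.0237). The resistant cells were narrower at 2p23.1, with a difference of -1.49 (adjusted p = 0.0119), and at 2p11.2, with -0.57 (adjusted p = 0.0223). The widest gaps in that direction were -2.32 at 4p11 (adjusted p = 1.54e-04) and -1.76 at 18p11.31 (adjusted p = 4.97e-06). These values rest on 2 libraries per group, and each includes the 0.22 that the centring adds to resistant minus colony. The named unexposed-only regions have no peak in either exposed group, so they could show nothing but that 0.22. The share that differs over all regions tested is not given here, so the 10 of 34 is not a rate.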

How the results depend on the processing

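No result changed direction under any alternative run. The drug-only count of 16 became 70 with lists of equal length, 29 with peaks of at least 284 bp only, 2 when marked required a −log10 q of 10 and unmarked meant no peak of any strength, 44 with the parental pair as the only unexposed libraries, 364 without the colony pair, 96 without the resistant pair and 32 without the NRAS Q61K pair. The unexposed-only count of 1474 became 492 when peaks needed a −log10 q of 10, 262 with lists of equal length, 653 with peaks of at least 284 bp, 133 under the mixed threshold, 2773 without the colony pair and 2423 without the parental pair, the last chosen after seeing the data. The difference in covered sequence lost its call with lists of equal length (-3.03 Mb), with parental controls only (-5.27 Mb, smallest possible p 0.0667) and without the resistant (-4.64 Mb), GFP (-7.05 Mb) or NRAS Q61K pair (-7.17 Mb). Wider regions numbered 1693 and narrower ones 3479 when peaks needed a −log10 q of 10, 1055 and 11072 without centring, 914 and 3984 with 2 plain groups, 50 and 771 with groups as units, and 1303 and 4358 with parental controls only; narrower ones numbered 3077 with lists of equal length and 2152 when only regions marked in all 10 were tested, where fewer regions enter. The cause of the other shifts was not tested.

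Leaving out each library in turn gave 16 to 23 drug-only and 1513 to 1888 unexposed-only regions, -8.96 to -6.52 Mb, 1738 to 2431 wider and 5522 to 6951 narrower regions. With the replicate number as a block, 2497 regions were wider and 6756 narrower. Same-numbered libraries of different groups showed little shared deviation (r from -0.05 to 0.13 over 10 pairs of groups, 1 of them above 0.1). That cannot show whether same-numbered libraries were prepared together. Of 510 values of the named regions under other settings, 504 kept their call, 5 lost it with groups as units and 1, at 16q12.1, with 2 plain groups. The named regions were chosen from these same peaks as strict members or as the largest changes. That count is therefore no test of how stable the calls are in general. Depth is known only through summit reads, so a weak region without a peak in the exposed lists may hold signal that was not called. The 13 to 15 reads of their weakest called summits are no upper limit for such signal, because a call depends on the local background. At 2p11.2, 148 reads in the first resistant library came with a −log10 q of only 3.44.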
